A study of Homo sapiens with 7 samples.

Results

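In BJAB cells, 584 of the 2503 peaks of O-GlcNAcase (OGA) on chromosomes 1 to 22 lay on a Pol II, an SPT5 and a TRIM28 peak and on no O-GlcNAc peak (23.3%, 95% Wilson interval 21.7% to 25.0%). These O-GlcNAc-free sites were chosen by an overlap of at least 1 bp with each of the first 3 lists and by none with the O-GlcNAc list. Where Pol II, SPT5 and TRIM28 met OGA, at 1090 OGA peaks, the O-GlcNAc-free sites made up 53.6% (50.6% to 56.5%), and the other 506, called O-GlcNAc-bearing sites here, also held an O-GlcNAc peak. When each list was held to a −log10 q of 5 or more, 261 O-GlcNAc-free and 281 O-GlcNAc-bearing sites were left (48.2% O-GlcNAc-free, 44.0% to 52.4%), so neither kind was firmly the more frequent. Over the OGA list as a whole, Pol II peaks overlapped 46.5% of peaks, SPT5 72.3%, TRIM28 90.3% and O-GlcNAc 24.1%; all 3 of Pol II, SPT5 and TRIM28 overlapped 43.5%, and 23.3% met the rule.

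BJAB is a human B-cell line that was established from a Burkitt's lymphoma and was used here at multiple passages. ChIP-seq, in which fixed chromatin is precipitated with an antibody and its DNA sequenced, was done with antibodies to OGA (also called NCOAT), Pol II (8WG16), SPT5, TRIM28 (also called TIF1b) and O-GlcNAc (RL2) in 1 library each, on cells fixed in 1% formaldehyde for 5 min. No treatment or genotype divides the libraries, and the mouse and rabbit IgG libraries were not used here. With 1 peak list per target there are no replicates, so no difference below was tested; intervals cover counting error only, and the depth of each library is unknown.

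After initiation, Pol II often stops a short way into the gene and is held there until it is released into elongation. SPT5 is a subunit of DSIF, a complex that helps to hold this pause and then moves along the gene with Pol II. TRIM28 (KAP1) is recruited by KRAB zinc finger proteins to silence repeats and genes, and it has also been linked to the control of pause release. O-GlcNAc is a sugar that the transferase OGT adds to serines and threonines of nuclear proteins, Pol II among them, and OGA is the enzyme that takes it off. The sites are thus places where the enzyme that removes the sugar was called and the sugar itself was not. Pausing itself was not measured by these peak lists, and without an annotation of the same build the position of the sites relative to genes was not analysed here. The absence of an O-GlcNAc peak means that none was called, which at an unknown depth does not show that the sugar was missing.

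The OGA peaks at the O-GlcNAc-free sites were low for the list and of its ordinary width. Their median fold enrichment over the authors' background was 3.02 (quartiles 2.65 and 3.48, range 1.58 to 12.7), against 3.20 at O-GlcNAc-bearing sites (2.68 and 4.08, range 1.42 to 20.0) and 3.60 at the 1413 OGA peaks outside both kinds. The groups overlapped almost throughout, and they parted mainly at the top. A fold enrichment of at least 5 was reached by 23 O-GlcNAc-free sites (3.94%, 2.64% to 5.84%), against 96 O-GlcNAc-bearing sites (19.0%, 15.8% to 22.6%) and 15.9% of the remaining OGA peaks. The median OGA width was 235 bp at O-GlcNAc-free sites (quartiles 196 and 297 bp, widest 962 bp), against 254 bp at O-GlcNAc-bearing sites (203 and 370 bp, widest 1671 bp), 232 bp at the OGA peaks outside both kinds and 236 bp over the whole list. Only 13 O-GlcNAc-free OGA peaks were wider than 500 bp (2.23%), against 78 O-GlcNAc-bearing ones (15.4%) and 4.25% of the remaining OGA peaks. The smallest width in the list was 169 bp. It was held by 20 O-GlcNAc-free sites (3.42%), 16 O-GlcNAc-bearing sites (3.16%) and 45 of the remaining OGA peaks (3.18%), which are similar shares.

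The OGA calls were weaker in significance at O-GlcNAc-free sites, but few were near the floor of the list, a −log10 q of 1.33. The median −log10 q was 5.22 at O-GlcNAc-free sites and 6.72 at O-GlcNAc-bearing sites, and values of at least 5 were held by 53.1% of O-GlcNAc-free sites (49.0% to 57.1%) and 65.8% of O-GlcNAc-bearing sites (61.6% to 69.8%). A −log10 q under 2 was found at 34 O-GlcNAc-free sites (5.82%), against 18 O-GlcNAc-bearing sites (3.56%) and 45 of the remaining 1413 OGA peaks (3.18%). Those remaining peaks had a median −log10 q of 6.84, and 69.2% of them reached at least 5.

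Pol II and SPT5 peaks were lower at O-GlcNAc-free than at O-GlcNAc-bearing sites, as they also were where OGA was absent, whereas TRIM28 peaks were slightly higher. The median Pol II fold enrichment was 4.50 at O-GlcNAc-free sites (quartiles 3.12 and 7.12), against 7.37 at O-GlcNAc-bearing sites (5.65 and 9.55). The median SPT5 fold enrichment was 6.55 (4.29 and 9.56) at O-GlcNAc-free sites, against 9.28 (7.62 and 11.3) at O-GlcNAc-bearing sites. Polymerase and its pausing factor thus went together between the kinds of site, and the O-GlcNAc-free sites spread more widely toward low values. Without OGA, Pol II peaks that had SPT5 and TRIM28 had medians of 4.46 free of O-GlcNAc and 6.89 with it, and SPT5 peaks that had Pol II and TRIM28 had medians of 5.96 and 9.16, so this difference was not limited to OGA sites. TRIM28 went the other way, with a median of 3.73 (3.07 and 4.49) at O-GlcNAc-free sites, against 3.32 (2.76 and 4.08) at O-GlcNAc-bearing sites. Its quartile ranges overlapped over most of their length. Where OGA was absent, TRIM28 peaks that had Pol II and SPT5 had closer medians, 2.95 free of O-GlcNAc and 2.87 with it.

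**Figure D1:**
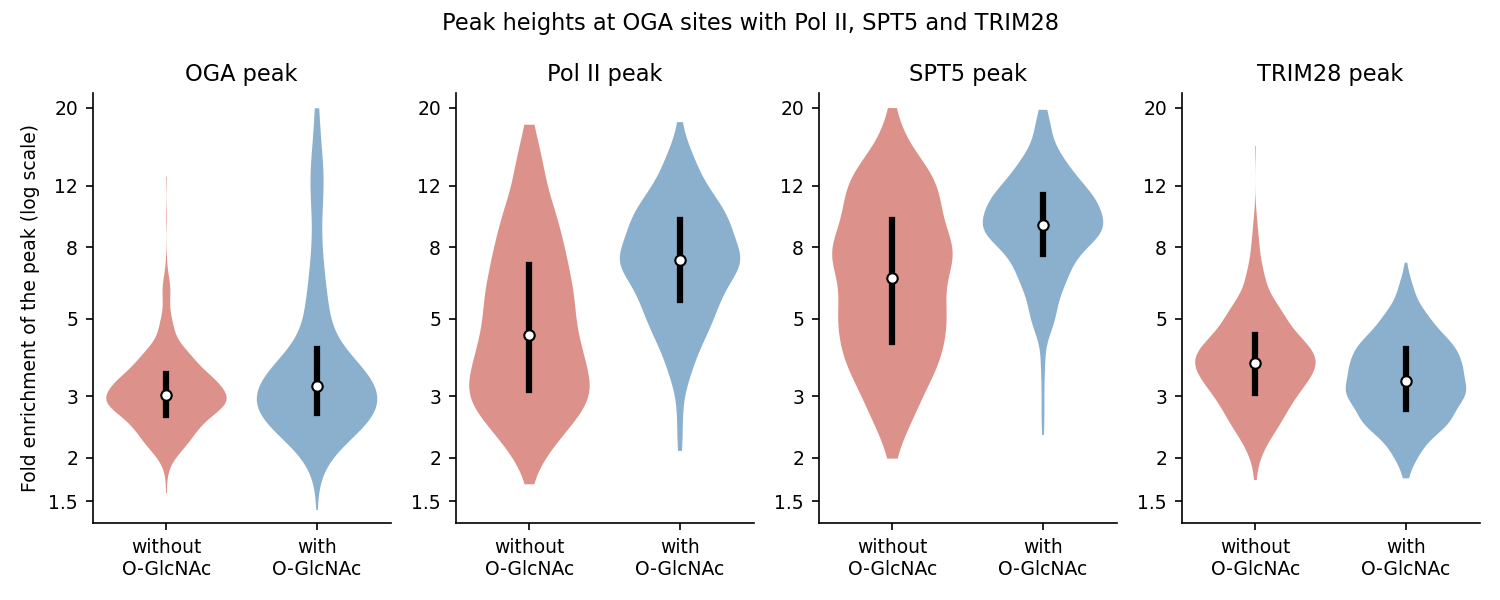
Fold enrichment (log scale) of the OGA, Pol II, SPT5 and TRIM28 peaks at OGA sites without O-GlcNAc (left of each panel, 584 sites) and with it (right, 506 sites); shapes show the density of sites, black bars the quartiles and white points the medians. Medians without and with O-GlcNAc were 4.50 and 7.37 for Pol II, 6.55 and 9.28 for SPT5, 3.73 and 3.32 for TRIM28, and 3.02 and 3.20 for OGA, whose upper tail was longer at sites with O-GlcNAc.

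Ranking the 1090 sites by the height of each peak showed where the O-GlcNAc-free ones lay. In the lowest quintile of Pol II height, with fold enrichments of 1.68 to 3.48, 90.8% of sites were O-GlcNAc-free (86.3% to 94.0%). The share was 64.7%, 44.5% and 31.2% in the next 3 quintiles and 36.7% (30.6% to 43.3%) in the highest, so it was not lower again at the very top. SPT5 gave nearly the same course, with 89.4%, 61.0%, 44.0%, 32.6% and 40.8% from its lowest to its highest quintile. For TRIM28 the course ran upward, at 41.3% (35.0% to 47.9%) in the lowest quintile and 67.0% (60.5% to 72.9%) in the highest. By OGA height the share was 56.9%, 57.3%, 63.8% and 54.6% in the first 4 quintiles and 35.3% (29.3% to 41.9%) in the highest, where OGA fold enrichments ran from 3.92 to 20.0.

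**Figure D2:**
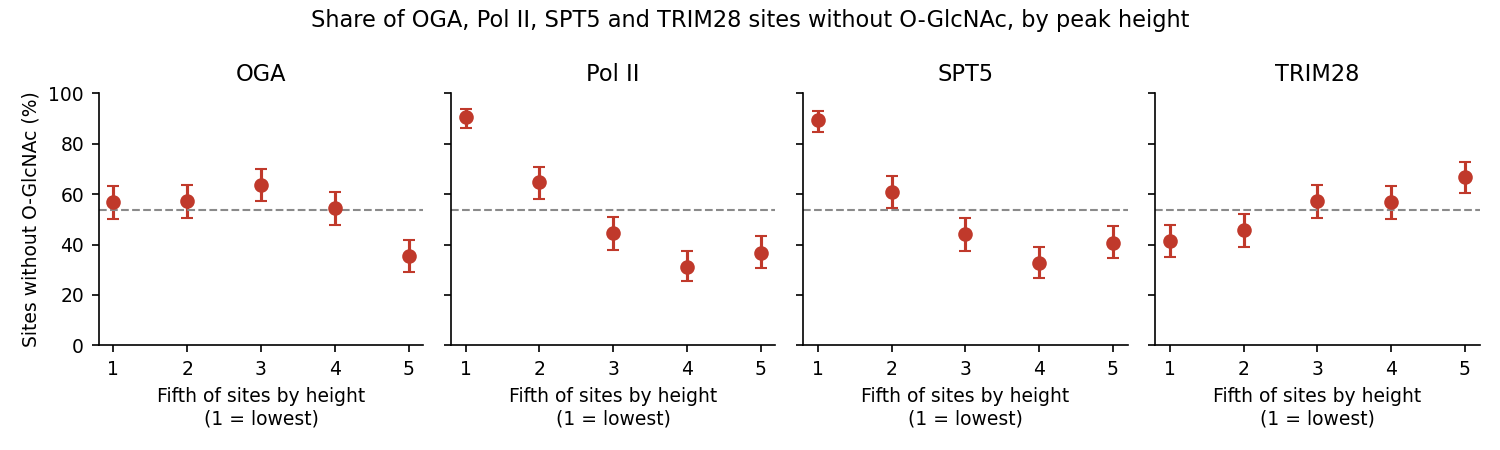
Percent of the 1090 OGA sites with Pol II, SPT5 and TRIM28 that were without O-GlcNAc, in 5 groups of 217 to 219 sites from the lowest to the highest peaks of each target; bars are 95% Wilson intervals and the dashed line is the share over all sites, 53.6%. The share was 90.8% at the lowest Pol II peaks and 89.4% at the lowest SPT5 peaks, and 35.3% at the highest OGA peaks.

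The difference in TRIM28 height stood within every quintile of Pol II height, and the difference in OGA height did not. Medians of TRIM28 at O-GlcNAc-free minus O-GlcNAc-bearing sites were 0.47, 0.75, 0.64, 0.30 and 0.23 in fold enrichment from the lowest to the highest Pol II quintile. For OGA they were 0.16 and 0.02 in the lower quintiles, where O-GlcNAc-bearing sites numbered 20 and 77, and -0.36, -0.39 and -0.17 in the upper ones. SPT5 was lower at O-GlcNAc-free sites in the first 4 Pol II quintiles, with differences of -1.96, -1.40, -1.02 and -0.16, and higher by 0.69 in the last. OGA was the narrower at O-GlcNAc-free sites in all 5 quintiles, with differences in median width from -14.5 to -42.5 bp.

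A strong polymerase peak was not rare among the O-GlcNAc-free sites. At 139 of them (23.8%, 20.5% to 27.4%) the Pol II fold enrichment was at or above 7.37, the median of the O-GlcNAc-bearing sites. OGA at these 139 sites had a median fold enrichment of 2.92, against 3.05 at the other 445, and never exceeded 5.68. Their SPT5 median was 10.7, against 5.30 at the other 445, and their TRIM28 median was 3.79, against 3.68 at the other 445. The 3 O-GlcNAc-free sites with the highest Pol II lay at chromosome 17, 36642033 to 36642345 (Pol II fold enrichment 17.9, OGA 2.26), chromosome 1, 53192050 to 53192370 (17.7, OGA 3.08), and chromosome 6, 27777741 to 27777991 (17.2, OGA 2.17), in hg19 coordinates as are all positions here. OGA at these 3 sites was thus low or average for the sites, under SPT5 peaks of 14.0 to 15.4. The −log10 q of OGA was 2.83, 3.20 and 1.34 in the same order, the last close to the floor of the OGA list.

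Across the 584 sites, OGA height went most with TRIM28 height. Spearman's rho was 0.37 with TRIM28 fold enrichment, -0.09 with Pol II and -0.18 with SPT5, while Pol II and SPT5 had a rho of 0.70 with each other. At the 506 O-GlcNAc-bearing sites the rho of OGA with TRIM28 was -0.03, and that of OGA height with OGA width was 0.60, against 0.19 at O-GlcNAc-free sites. These values describe sites read from the same libraries, and they carry no test.

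Setting the sites beside places with Pol II, SPT5 and TRIM28 but no OGA gave taller TRIM28 beside OGA and no single order for Pol II. Among Pol II peaks with SPT5, TRIM28 and no O-GlcNAc, the 558 with OGA had a median fold enrichment of 4.25 and the 5501 without OGA had 4.46. With O-GlcNAc on the Pol II peak the medians ran the other way, at 7.36 with OGA and 6.89 without. TRIM28 peaks with Pol II, SPT5 and no O-GlcNAc had a median of 3.68 where OGA was present (582 peaks) and 2.95 where it was absent (6501 peaks). Their median widths were 510 bp with OGA and 350 bp without it, and a wider peak has more room to overlap an OGA peak. With O-GlcNAc on the TRIM28 peak the medians were 3.36 with OGA and 2.87 without, so TRIM28 was the taller beside OGA at either kind of site. SPT5 peaks free of O-GlcNAc were equally high with and without OGA, at 5.95 and 5.96, but wider with it, at 1172 bp against 810 bp. The share of such Pol II peaks that carried O-GlcNAc was 49.6% with OGA (46.7% to 52.5%) and 47.2% without (46.2% to 48.1%), and these intervals overlapped. For SPT5 peaks with Pol II and TRIM28 it was 50.7% (47.8% to 53.6%) and 49.2% (48.2% to 50.2%), which also overlapped. For TRIM28 peaks with Pol II and SPT5 it was 47.3% with OGA (44.4% to 50.3%) and 42.8% without (41.9% to 43.7%). These intervals did not overlap, but they cover counting error only and are no test. Such TRIM28 peaks were wider with OGA than without, at medians of 510 and 350 bp free of O-GlcNAc. With O-GlcNAc the medians were 506 and 383 bp. A wider peak also has more room to overlap an O-GlcNAc peak, and the shares were not compared at equal width.

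OGA summits lay close to TRIM28 summits and farther from those of Pol II and SPT5. The median distance from the OGA summit was 46 bp to TRIM28 (quartiles 21 and 86 bp), 116 bp to Pol II (61 and 209 bp) and 126 bp to SPT5 (54.8 and 272 bp). At O-GlcNAc-bearing sites the medians were 53 bp to TRIM28, 157 bp to Pol II and 147 bp to SPT5. TRIM28 was thus the nearest at both kinds of site. Its summit was within 50 bp of the OGA summit at 53.6% of O-GlcNAc-free sites (49.5% to 57.6%), the Pol II summit at 20.0% and the SPT5 summit at 23.1%. TRIM28 was the nearest of the 3 summits at 384 O-GlcNAc-free sites (65.8%, 61.8% to 69.5%), SPT5 at 103 and Pol II at 91, with ties at 6. At O-GlcNAc-bearing sites TRIM28 was nearest at 65.4%. Width limits how far a summit can lie from OGA: at O-GlcNAc-free sites TRIM28 peaks had a median width of 518 bp, Pol II peaks one of 599 bp and SPT5 peaks one of 1294 bp.

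**Figure D3:**
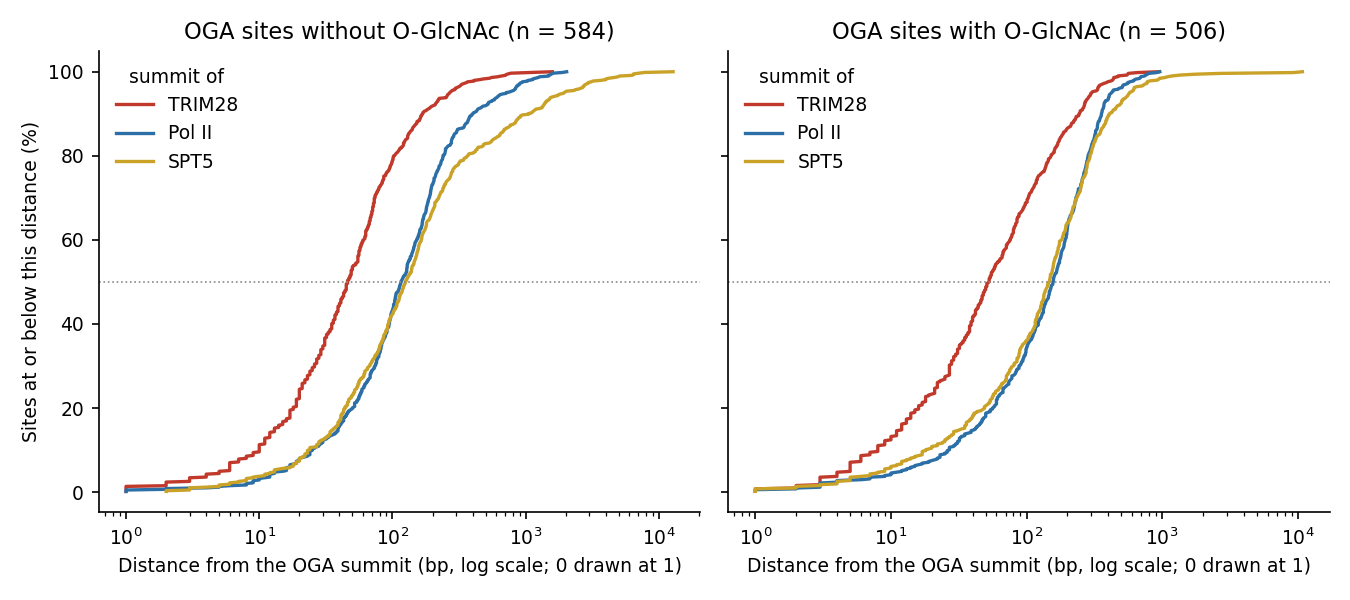
Percent of OGA sites whose TRIM28, Pol II or SPT5 summit lay at or below a given distance (bp, log scale) from the OGA summit, at sites without O-GlcNAc (left) and with it (right); the dotted line marks the medians. TRIM28 was nearest in both panels, with medians of 46 and 53 bp, and the SPT5 curve at sites without O-GlcNAc has a long tail beyond 1 kb.

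SPT5 summits over 1 kb from OGA were more frequent at O-GlcNAc-free sites, and more of these sites lay in broad SPT5 domains. This held only for the far tail. The median SPT5 distance was shorter at O-GlcNAc-free sites, at 126 bp against 147 bp. An SPT5 summit over 250 bp away was found at 26.5% of them and 27.9% of O-GlcNAc-bearing sites. The SPT5 summit was more than 1 kb from OGA at 60 O-GlcNAc-free sites (10.3%, 8.07% to 13.0%), against 8 O-GlcNAc-bearing sites (1.58%, 0.803% to 3.09%). SPT5 peaks wider than 5 kb held 52 O-GlcNAc-free sites (8.90%, 6.85% to 11.5%), against 15 O-GlcNAc-bearing ones (2.96%, 1.80% to 4.83%). Of the 60 sites with a distant SPT5 summit, 34 were among these 52 (56.7%). These shares count sites, and 21 SPT5 peaks held more than 1 O-GlcNAc-free site. Counted once each, SPT5 peaks with Pol II, TRIM28 and OGA had a median width of 1172 bp without O-GlcNAc anywhere on them and 1296 bp with it. Their upper decile was 3724.5 bp without O-GlcNAc and 3130.5 bp with it, and the widest were 21542 and 27057 bp. Pol II and SPT5 summits were within 50 bp of each other at 57.9% of O-GlcNAc-free sites (53.8% to 61.8%), against 70.9% of O-GlcNAc-bearing sites (66.8% to 74.7%). The OGA summit fell inside the SPT5 peak at 99.3% of O-GlcNAc-free sites, inside the TRIM28 peak at 99.0% and inside the Pol II peak at 90.8%. OGA peaks lay wholly inside the TRIM28 peak at 85.4% of O-GlcNAc-free sites (82.4% to 88.1%), against 67.6% of O-GlcNAc-bearing ones (63.4% to 71.5%), where OGA was also the wider.

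The 4 summits fell most often into a line with OGA and TRIM28 side by side at one end and Pol II and SPT5 at the other. That arrangement held at 388 O-GlcNAc-free sites (66.4%, 62.5% to 70.1%) and 331 O-GlcNAc-bearing sites (65.4%, 61.2% to 69.4%). OGA and TRIM28 summits lay on one side of the Pol II summit at 86.3% of O-GlcNAc-free sites (83.3% to 88.9%) and at 85.0% of O-GlcNAc-bearing ones. Within the line at O-GlcNAc-free sites neither of the pair had a fixed place: OGA stood outside TRIM28 at 108 sites with SPT5 on the inside and 93 with Pol II on the inside, and TRIM28 stood outside OGA at 111 and 76. Without the strand of a gene, mirror images were joined, which leaves 12 orders, and 12 O-GlcNAc-free sites with 2 summits on the same base had none.

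Which of Pol II and SPT5 stood next to the OGA and TRIM28 pair differed in share between the kinds of site. SPT5 stood inside and Pol II at the far end at 219 O-GlcNAc-free sites (37.5%, 33.7% to 41.5%), against 239 O-GlcNAc-bearing sites (47.2%, 42.9% to 51.6%). Pol II stood inside and SPT5 at the far end at 169 O-GlcNAc-free sites (28.9%, 25.4% to 32.7%), against 92 O-GlcNAc-bearing sites (18.2%, 15.1% to 21.8%). Pol II and SPT5 summits were close to each other, with a median distance of 36.5 bp at O-GlcNAc-free sites and 21 bp at O-GlcNAc-bearing ones, so that their order can turn on a shift of a few bases. All 4 summits lay within 100 bp at 114 O-GlcNAc-free sites (19.5%) and within 250 bp at 354 (60.6%), and the median span from the first to the last was 202 bp.

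**Figure D4:**
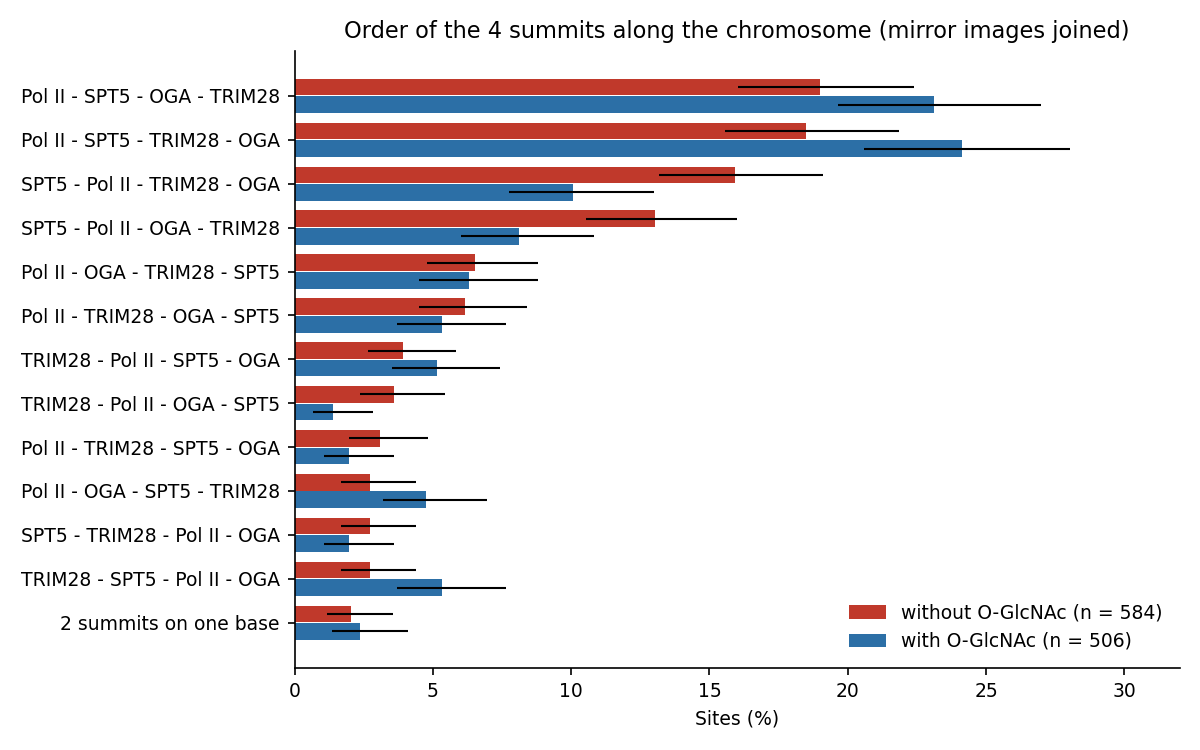
Percent of OGA sites with each order of the OGA, TRIM28, Pol II and SPT5 summits along the chromosome, with mirror images joined, at sites without O-GlcNAc (upper bar of each pair) and with it (lower bar); lines are 95% Wilson intervals. The first 4 orders, with OGA and TRIM28 together at one end, held 66.4% of sites without O-GlcNAc and 65.4% of sites with it.

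The nearest O-GlcNAc peak was seldom close. From the edge of the OGA peak the median distance was 40354 bases (quartiles 11984 and 111836 bases), where a distance of at least 0 is fixed by the rule. An O-GlcNAc peak lay within 100 bases of 10 sites (1.71%), within 1 kb of 35 (5.99%, 4.34% to 8.22%), within 10 kb of 129 (22.1%, 18.9% to 25.6%) and within 100 kb of 420 (71.9%). No O-GlcNAc peak lay within 1 Mb of 11 sites (1.88%). The share within 1 kb was 2.66% when O-GlcNAc was barred within 500 bp. It was 11.4% if overlaps had to cover 50% of the shorter peak, which also counts sites that O-GlcNAc overlaps by less. OGA peaks with SPT5 and TRIM28 but no Pol II or O-GlcNAc (583 peaks) were a median of 63729 bases away, and those with TRIM28 alone (540 peaks) 110168 bases away. Within 10 kb of an O-GlcNAc peak lay 11.7% (9.31% to 14.5%) of the OGA peaks with SPT5 and TRIM28, and 7.59% (5.65% to 10.1%) of those with TRIM28 alone, both below the 22.1% of the sites with Pol II.

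**Figure D5:**
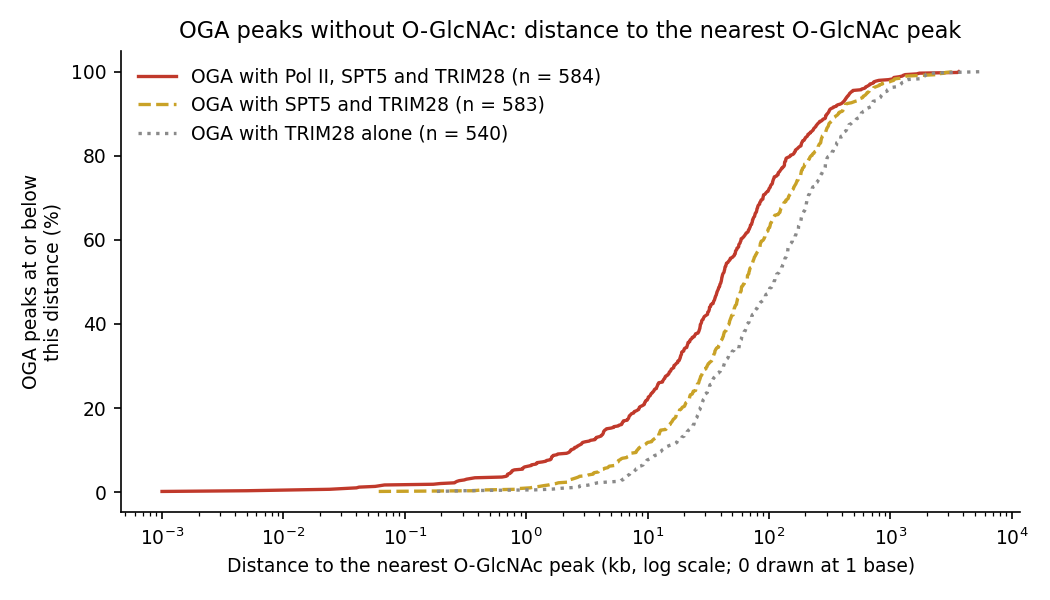
Percent of OGA peaks whose nearest O-GlcNAc peak lay at or below a given distance (kb, log scale), for the 584 O-GlcNAc-free sites with Pol II, SPT5 and TRIM28, for OGA with SPT5 and TRIM28 (583) and for OGA with TRIM28 alone (540), none of them overlapped by O-GlcNAc. The median distances were 40354 bases with Pol II, SPT5 and TRIM28, 63729 bases with SPT5 and TRIM28, and 110168 bases with TRIM28 alone.

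At the O-GlcNAc-free sites, which the rule chose for having no O-GlcNAc at OGA, it was also seldom found elsewhere on the Pol II peak. The Pol II peak of 31 sites (5.31%, 3.76% to 7.44%) overlapped an O-GlcNAc peak away from OGA, which is a part of the Pol II peak that the rule leaves free, whereas 40.4% of all Pol II peaks overlapped O-GlcNAc. That share depended on the settings: it was 3.45% with a −log10 q of 5 or more throughout and 2.13% with O-GlcNAc barred within 500 bp. With an overlap of 50% of the shorter peak, asked of O-GlcNAc on Pol II as well, it was 9.49%. O-GlcNAc could then also touch the OGA peak itself. With summits within 250 bp the measure was another one: at 1.69% of sites the Pol II summit lay within 250 bp of an O-GlcNAc summit. The SPT5 peak did so at 51 sites (8.73%), against 14.1% of all SPT5 peaks, and the TRIM28 peak at 16 sites (2.74%), against 13.1% of all TRIM28 peaks. These background shares count O-GlcNAc anywhere on a peak, so the rule itself lowers the share at the sites. Of all Pol II peaks with SPT5, TRIM28 and OGA, 49.6% carried O-GlcNAc. The distance from O-GlcNAc-free Pol II peaks to the nearest O-GlcNAc peak had similar medians with and without OGA: 42980 bases for the 558 with SPT5, TRIM28 and OGA and 46024 bases for the 5501 with SPT5 and TRIM28 and no OGA. O-GlcNAc lay within 10 kb of 18.6% of the first (15.6% to 22.1%) and 20.8% of the others (19.7% to 21.9%).

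The 502 O-GlcNAc peaks nearest to the sites carried Pol II, SPT5 and TRIM28 at shares close to those of the whole list. Pol II overlapped 82.7% of them (79.1% to 85.7%), against 81.2% of all 8988 O-GlcNAc peaks, SPT5 overlapped 91.2%, against 88.4%, and TRIM28 overlapped 63.3%, against 60.4%. Their median fold enrichment was 3.74, against 3.87 in the whole list. OGA lay on 56 of them (11.2%, 8.69% to 14.2%), against 6.72% of all O-GlcNAc peaks. At the 35 sites with O-GlcNAc within 1 kb, its summit was on the same side of the Pol II summit as OGA at 18 sites and nearer to the Pol II than to the OGA summit at 20, so no side prevailed at this number.

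The sites also had other peaks around them. Another Pol II summit lay within 10 kb of the OGA summit at 358 O-GlcNAc-free sites (61.3%, 57.3% to 65.2%), against 245 O-GlcNAc-bearing sites (48.4%, 44.1% to 52.8%). Another OGA summit lay within 10 kb of 131 O-GlcNAc-free sites (22.4%, 19.2% to 26.0%), against 53 O-GlcNAc-bearing sites (10.5%, 8.10% to 13.4%) and 15.3% of the remaining OGA peaks (13.5% to 17.3%). For 72 of the 584 this neighbour was another O-GlcNAc-free site, for 60 an OGA peak of another combination, and for 17 an O-GlcNAc-bearing site; a site can count under more than 1 of these. Among all 2503 OGA peaks, these kinds numbered 584, 1413 and 506 in the same order. The sites rested on 579 Pol II, 559 SPT5 and 577 TRIM28 peaks, since 10, 21 and 8 of these held more than 1 site. Such sites share a peak and are not independent.

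Every chromosome from 1 to 22 held some of the sites. Chromosomes 1 and 11 held 47 each, chromosome 19 held 43, chromosome 7 held 41 and chromosome 6 held 40. As a share of the sites with Pol II, SPT5 and TRIM28, the O-GlcNAc-free ones were least frequent on chromosome 17, at 38 of 93 (40.9%, 31.4% to 51.0%), and most frequent on chromosome 4, at 19 of 26 (73.1%, 53.9% to 86.3%). The share over all chromosomes, 53.6%, lies just outside both intervals, which were picked as the extremes of 22.

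The highest OGA peak among the sites stood on a low Pol II peak. The peak at chromosome 1, 32729207 to 32729808, had an OGA fold enrichment of 12.7, with Pol II at only 2.71, SPT5 at 3.04 and TRIM28 at 4.91. Its summit was 13 bp from TRIM28, 18 bp from SPT5 and 45 bp from Pol II, and the nearest O-GlcNAc peak was 27690 bases away. The next, at chromosome 8, 90741448 to 90741978 (OGA 9.73, Pol II 6.30), was 1255465 bases from O-GlcNAc. The peak at chromosome 15, 72520563 to 72521056 (OGA 7.30), stood 10 bp from the TRIM28 summit and 2685 bp from the summit of an SPT5 peak 5705 bp wide. The peak at chromosome 9, 130746162 to 130746573 (OGA 6.75), lay in the broadest SPT5 domain of any of the sites, 27057 bp wide, and the peak at chromosome 2, 135047779 to 135048127, had an OGA fold enrichment of 6.45. Pol II at these 5 sites ranged from 2.71 to 6.30, on both sides of the median of 4.50 over all 584 sites.

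The site with the lowest OGA peak was also low in the other lists. At chromosome 20, 30254460 to 30254640, OGA had a fold enrichment of 1.58, Pol II 1.70, SPT5 2.62 and TRIM28 2.46. The next were at chromosome 20, 30193088 to 30193322 (OGA 1.77), and chromosome 7, 24917719 to 24917924 (OGA 1.87), where SPT5 was 3.44 and 6.11, the last near the median of the sites. The peak at 30254460 had a −log10 q of 1.33, just inside the list, while those at 30193088 and 24917719 had 4.94 and 2.50. The 3 widest OGA peaks, at chromosome 2, 61690976 to 61691937 (962 bp), chromosome 19, 10349853 to 10350595 (743 bp), and chromosome 2, 26467296 to 26468010 (715 bp), had OGA fold enrichments of 3.88, 6.19 and 4.14. On the first and the last of them the TRIM28 peak was only 191 and 198 bp wide and lay within the OGA peak.

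The distance to O-GlcNAc ran from contact to megabases. At chromosome 6, 15662642 to 15662937, the OGA peak abutted an O-GlcNAc peak with 0 bases between, and at chromosome 7, 100806026 to 100806214 and 6413892 to 6414133, the gaps were 5 and 11 bases. These 3 sites are O-GlcNAc-free only by the exact edges of the calls. At the other end, a pair of sites on chromosome 2, at 144941329 to 144941513 and 145001762 to 145002037, were 3660592 and 3600068 bases from the nearest O-GlcNAc peak, which was the same one. Pol II was present at both, with fold enrichments of 4.80 and 3.84, and the next farthest, at chromosome 3, 176915116 to 176915290, was 1736088 bases away. OGA stood farthest from TRIM28 at chromosome 3, 195634761 to 195634961 (1584 bp between summits), chromosome 11, 65405982 to 65406399 (1121 bp), and chromosome 7, 91763083 to 91763406 (775 bp), all within TRIM28 peaks more than 1 kb wide.

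The smallest overlaps lay at the edge of the range, and the number of sites that depended on them was not counted. The lower decile of the overlap was 140.9 bp with Pol II and 175 bp with SPT5 and with TRIM28. The smallest overlap with Pol II was 3 bp, at chromosome 9, 998587 to 998865, and chromosome 10, 73409478 to 73409692, where Pol II was low (2.58 and 2.71). The smallest with SPT5 were 28 and 62 bp, at chromosome 12, 104322807 to 104323065, and chromosome 22, 18759101 to 18759269, and the smallest with TRIM28 were 59 and 76 bp, at chromosome 1, 11969713 to 11969881 and 45285596 to 45285772. The median overlap was 210.5 bp with Pol II, 230.0 bp with SPT5 and 229 bp with TRIM28, close to the median OGA width of 235 bp. Just outside the rule, O-GlcNAc overlapped the OGA peaks at chromosome 19, 18392202 to 18392418, by 5 bp and at chromosome 17, 74965050 to 74965282, by 6 bp; their OGA fold enrichments were 3.05 and 2.69 and their Pol II 15.4 and 9.99. OGA peaks that missed only Pol II numbered 583 and came as near as 20 bases to a Pol II peak, while only 10 missed SPT5 alone and 26 TRIM28 alone, at 661 and 148 bases or more.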

How the data were processed

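ChIP-seq peak lists of 5 antibodies in BJAB cells were used, each group being 1 sample taken from its title. The submitters' processing notes name the build hg19 and the tools Bowtie2 2.1.0, Trimmomatic 0.30 and bcl2fastq 2.17; for the peak caller, its control and its threshold, nothing is stated in the sources used here. As deposited, the fold enrichment is the authors' ratio of a peak to a background that is not described, and it was compared only within 1 list. The −log10 p, −log10 q and score columns, also as deposited, rate each peak against it; the score, which follows 10 times the −log10 q, and the −log10 p were not used. Positions and summits were as deposited, written from base 1.

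For each OGA peak the overlapping peak with the nearest summit was taken from each list. Shares have 95% Wilson intervals. The members, the comparisons and the rule for named sites (extremes of height, width, Pol II height, distance to O-GlcNAc, distance to TRIM28 and overlap) were chosen with earlier results of these data known. The code was checked on planted lists and gave 584 sites, as did bedtools 2.31.1. No genome of the build was used, so no sequence or gene is given. Python 3.11.15, numpy 2.4.6, pandas 2.3.3, scipy 1.17.1 and matplotlib 3.10.9 were used.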

Additional observations from a re-analysis of the deposited data

Results flagged for a closer look

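Chromosome X was outside the comparisons, and 8 OGA peaks there met the same rule, out of 58 OGA peaks, while 6 also held O-GlcNAc. The OGA fold enrichments of the 8 ranged from 2.78 to 5.35 with a median of 3.52.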

How the results depend on the processing

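The 8 alternatives were chosen with earlier results of these data known. In all, 107 of the 128 recomputed values, for 16 results, stayed within the interval of the reported value. For the count of sites this interval was a set band of 389 to 876, not a counting error. The 414 sites found with summits within 250 bp fell inside it. The differences in median fold enrichment kept their sign. For OGA the interval of the difference ran from -0.33 to 0.01 with a −log10 q of 5 or more in all lists. With summits within 250 bp it ran from -0.29 to 0.04. The share of O-GlcNAc-free sites was added after seeing the data. When every list was held to a −log10 q of 5 or more, 261 sites met the rule and 281 carried O-GlcNAc, fewer by construction, so that the O-GlcNAc-free share of 53.6% became 48.2%; OGA medians became 3.38 in fold enrichment and 262 bp in width, the Pol II summit distance 136 bp, the share with TRIM28 nearest 70.5% and the share with O-GlcNAc elsewhere on the Pol II peak 3.45%. With summits within 250 bp in place of overlap, which caps the distances, these were 94 bp for Pol II, 84.5 bp for SPT5 and 40.5 bp for TRIM28, with TRIM28 nearest at 61.6%, an SPT5 difference of -3.41 and an O-GlcNAc-free share of 59.1%. In that setting 1.69% of sites had a Pol II summit within 250 bp of an O-GlcNAc summit, which is not a count of O-GlcNAc elsewhere on the Pol II peak. Merging peaks within 500 bp gave an SPT5 distance of 150 bp; the cause was not tested. An overlap of 50% of the shorter peak, which admits sites that O-GlcNAc touches, gave a median distance to O-GlcNAc of 35603 bases and an O-GlcNAc-free share of 56.6%. It gave 11.4% within 1 kb, the touched sites included, and 9.49% with O-GlcNAc on the Pol II peak, at OGA or elsewhere. Barring O-GlcNAc within 500 bp gave 2.66% within 1 kb and 2.13% with O-GlcNAc elsewhere on the Pol II peak. No paired analysis was possible because each target had 1 library. The unknown depth limits every absence of a peak.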
